A study of Danio rerio with 6 samples.

Results

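Gene expression was examined for 7 genes, mostly of the mesoderm and endoderm of the gastrula, among the 32266 genes of the RNA-Seq table. They are *tbxta* (ENSDARG00000101576), *foxa3* (ENSDARG00000012788), *aplnrb* (ENSDARG00000036670), *xbp1* (ENSDARG00000035622, listed as *XBP1*), *foxa* (ENSDARG00000087094), *mixl1* (ENSDARG00000069252) and *drll.2* (ENSDARG00000035150). The genes were given by identifier or symbol and were chosen by their rlog values in the 3 groups, with the differences already known. Their values in all 3 groups are therefore given as a description, without a test. The cells came from zebrafish (*Danio rerio*, strain AB) embryos, labelled as early embryonic cells at 9 hpf (hours post fertilization; the study's methods name a slightly earlier stage), and were separated with a cell sorter. In ‘Mosaic’ embryos, an injected plasmid with a heat shock promoter placed β-catCA, a truncated and constitutively active mouse β-catenin, together with GFP in scattered cells, and GFP+ cells were sorted. Injected plasmids are in general inherited unevenly, so the dose can vary from cell to cell. In ‘Ubiquitous’ embryos, a transgenic line (HS:GFP-2A-β-catCA) drives the same protein from a heat shock promoter throughout the embryo, and GFP+ cells were sorted. ‘Uninjected’ cells were sorted in a similar way from uninjected embryos. Cells of many embryos were pooled for each group, each group has 2 libraries (numbered by lot), and no group injected without β-catCA was analysed here. Plasmid injection and mosaic expression cannot be told apart in ‘Mosaic’ cells. The sources do not say whether ‘Uninjected’ embryos were heat shocked.

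In the zebrafish gastrula, Nodal signals at the margin induce mesendoderm, the common precursor of mesoderm and endoderm. FGF and Wnt signals then maintain the mesodermal fate and the posterior progenitors, and BMP signals set its dorsal or ventral character. *tbxta* encodes the T-box factor Brachyury, which is required for the notochord and the tail and is maintained by Wnt signalling in posterior progenitors. *foxa3* and *foxa* encode forkhead factors of the FoxA family, which act in axial mesoderm and endoderm. *mixl1* encodes a homeodomain factor downstream of Nodal that takes part in endoderm formation. *aplnrb* encodes an Apelin receptor that guides the movement of mesendodermal cells. *drll.2* belongs to the draculin family of zinc finger genes, whose founder *drl* marks the early lateral plate mesoderm. *xbp1* encodes a transcription factor of the unfolded protein response, which raises the secretory capacity of cells.

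Whole counts were inferred from the deposited rlog values, which are regularized logarithms (log2) drawn toward each gene's mean. The inferred counts gave back the deposited values within 0.001 for 14131 of 14132 genes with a count, including all 7. The libraries differed in depth by a factor of 14.2. The ‘Mosaic’ libraries held 217242 and 240223 counts, the ‘Ubiquitous’ ones 345593 and 34540, and the ‘Uninjected’ ones 58352 and 489311. Shares are given per 100000 counts of a library with exact (Clopper-Pearson) 95% intervals, which cover counting error only. All 5 markers of early embryonic cells had counts, and 3 of 4 yolk syncytial layer markers (*mxtx1*, *apoa4b.1* and *ttr*) were at 0. The summed share of the 12 enveloping layer markers, of which *cldnf* was at 0, was 186 to 251 per 100000 in ‘Mosaic’, 98.4 to 139 in ‘Ubiquitous’ and 163 to 331 in ‘Uninjected’ libraries. The table lists zebrafish genes only, so the mouse transgene has no row of its own. The row of the endogenous *ctnnb1* had a mean share of 199 per 100000 in ‘Mosaic’, 141 in ‘Ubiquitous’ and 149 in ‘Uninjected’ cells.

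*tbxta* was scarcest in ‘Mosaic’ cells of the 3 groups. It was counted 46 and 55 times in ‘Mosaic’, or 21.2 (15.5 to 28.2) and 22.9 (17.2 to 29.8) per 100000. In ‘Ubiquitous’ it was counted 303 and 30 times, or 87.7 (78.1 to 98.1) and 86.9 (58.6 to 124) per 100000. In ‘Uninjected’ it was counted 71 and 249 times, or 122 (95 to 153) and 50.9 (44.8 to 57.6) per 100000. Both ‘Mosaic’ libraries thus lay below all 4 others, and the ‘Ubiquitous’ pair lay between the ‘Uninjected’ libraries, whose intervals did not overlap each other. On the rlog scale, ‘Mosaic’ cells had a mean of 5.45 ± 0.07, ‘Ubiquitous’ cells 6.95 ± 0.02 and ‘Uninjected’ cells 6.83 ± 0.81 (SD, n = 2 each). The mean share was 3.96-fold lower in ‘Mosaic’ than in ‘Ubiquitous’, with 3.79 to 4.14-fold over the pairs of single libraries, and 3.92-fold lower than in ‘Uninjected’, with 2.22 to 5.75-fold over the pairs. In sorted pools, fewer cells that express a gene and less RNA per cell cannot be told apart, for this gene and for the others. The paralog *tbxtb* (listed as *TBXT*) was at 0 in all 6 libraries. A count of 0 allows up to 3 counts in a library, or a share of 0.613 per 100000 in the deepest and 8.69 in the shallowest. This holds only where reads of the gene can be counted, which was not tested. In all 6 libraries, 18134 of the 32266 genes were listed at 0.

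*foxa3* followed *tbxta* in ‘Mosaic’ cells but had its highest level in ‘Uninjected’ cells. The ‘Mosaic’ libraries held 7 and 10 counts, the ‘Ubiquitous’ ones 38 and 4, and the ‘Uninjected’ ones 18 and 61. These were shares of 3.22 (1.3 to 6.64) and 4.16 (2 to 7.66) per 100000, then 11 (7.78 to 15.1) and 11.6 (3.16 to 29.6), then 30.8 (18.3 to 48.7) and 12.5 (9.54 to 16). The 3 groups did not overlap in this order, but the deeper ‘Uninjected’ library was close to the ‘Ubiquitous’ pair, so these neighbours did not separate beyond their counting error. The interval of the shallow ‘Ubiquitous’ library, with 4 counts, also overlapped those of both ‘Mosaic’ libraries, while that of the deep one lay just above them. As for *tbxta*, the shallow ‘Uninjected’ library had the higher value, and the intervals of the ‘Uninjected’ libraries did not overlap. ‘Mosaic’ cells had a mean rlog of 3.25 ± 0.10, ‘Ubiquitous’ cells 4.05 ± 0.01 and ‘Uninjected’ cells 4.55 ± 0.63 (SD, n = 2 each). The family members *foxa2* and *foxa1*, which act in the endoderm and floor plate, gave other values. For *foxa2* (ENSDARG00000003411), ‘Mosaic’ libraries held 19 and 55 counts, ‘Ubiquitous’ 71 and 5, and ‘Uninjected’ 15 and 115, and none of its differences passed (limma adjusted p between 0.543 and 0.938). *foxa1* had only 9 counts in all.

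*aplnrb* was lowest in ‘Mosaic’ and on average highest in ‘Ubiquitous’ cells, where it overlapped ‘Uninjected’. It was counted 16 and 16 times in ‘Mosaic’, 80 and 11 times in ‘Ubiquitous’, and 16 and 60 times in ‘Uninjected’. The shares were 7.37 (4.21 to 12) and 6.66 (3.81 to 10.8) per 100000, then 23.1 (18.4 to 28.8) and 31.8 (15.9 to 57), then 27.4 (15.7 to 44.5) and 12.3 (9.36 to 15.8). The ‘Mosaic’ interval touched that of the deeper ‘Uninjected’ library, while it lay clear of both ‘Ubiquitous’ libraries. Its mean rlog reached 3.93 ± 0.05 among ‘Mosaic’, 5.10 ± 0.15 among ‘Ubiquitous’ and 4.73 ± 0.61 among ‘Uninjected’ libraries (SD, n = 2 each). The paralog receptor gene *aplnra* (ENSDARG00000002172) was counted 13 and 13, 53 and 3, and 8 and 30 times in the same order, with a difference of -0.55 between ‘Mosaic’ and ‘Ubiquitous’ on the rlog scale (SE 0.26, limma adjusted p = 0.385). The ligand gene *apela* (ENSDARG00000094729), whose product Toddler acts through these receptors in gastrulation, was counted 76 and 80, 95 and 10, and 15 and 140 times. ‘Mosaic’ exceeded ‘Ubiquitous’ by 0.23 (limma adjusted p = 0.696) and ‘Uninjected’ by 0.27 (adjusted p = 0.705), neither of which passed. The second ligand gene *apln* had 8 counts in all.

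*xbp1* was lowest in ‘Mosaic’, intermediate in ‘Ubiquitous’ and highest in ‘Uninjected’ cells, with no overlap between the groups. It was counted 50 and 32 times in ‘Mosaic’, or 23 (17.1 to 30.3) and 13.3 (9.11 to 18.8) per 100000. In ‘Ubiquitous’ it was counted 148 and 12 times, or 42.8 (36.2 to 50.3) and 34.7 (18 to 60.7) per 100000, and in ‘Uninjected’ 33 and 286 times, or 56.6 (38.9 to 79.4) and 58.4 (51.9 to 65.6). Here the ‘Uninjected’ libraries were alike and the ‘Mosaic’ libraries differed more, and the interval of the shallow ‘Ubiquitous’ library reached those of both neighbouring groups. The mean rlog values were 5.08 ± 0.37, 5.88 ± 0.14 and 6.31 ± 0.04 in this order (SD, n = 2 each). The share was 3.16-fold lower in ‘Mosaic’ than in ‘Uninjected’ (2.46 to 4.39-fold over the pairs of libraries). The summed share of 4 hatching gland and prechordal plate markers had its highest level in ‘Uninjected’ cells too, at 51.4 and 57.6 per 100000, against 5.83 and 10.1 in ‘Mosaic’ and 2.9 and 5.5 in ‘Ubiquitous’. Of these markers, *ctslb* was counted 13 and 87 times in ‘Uninjected’, 2 and 2 times in ‘Mosaic’, and 0 and 1 times in ‘Ubiquitous’. In the same order, *otx1* was counted 15 and 124, 10 and 6, and 13 and 0 times. *klf17* was counted 2 and 70, 10 and 6, and 5 and 0 times, with an rlog SD of 0.67 in ‘Uninjected’ (n = 2). *he1.1* had 2 counts in all. The summed share of 5 primordial germ cell markers was 22.3 and 12.5 per 100000 in ‘Uninjected’, 5.5 and 5.79 in ‘Ubiquitous’, and 0.921 and 1.25 in ‘Mosaic’. For 5 neural ectoderm markers it was 199 and 318, 268 and 130, and 205 and 302 in this order. For 7 epidermal ectoderm markers it was 87.4 and 132, 97.2 and 52.1, and 104 and 106. Both ectoderm sums overlapped between ‘Mosaic’ and ‘Uninjected’. These markers may not be limited to the cell type they are listed under. The part of cells with these markers in the values of *xbp1* and *foxa3* was not tested.

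*foxa*, *mixl1* and *drll.2* were highest in ‘Ubiquitous’ cells, here without overlap with ‘Uninjected’ cells. *foxa* was counted 5 and 5 times in ‘Mosaic’, 33 and 9 times in ‘Ubiquitous’, and 2 and 17 times in ‘Uninjected’. Its shares were 2.3 (0.747 to 5.37) and 2.08 (0.676 to 4.86) per 100000, then 9.55 (6.57 to 13.4) and 26.1 (11.9 to 49.5), then 3.43 (0.415 to 12.4) and 3.47 (2.02 to 5.56). ‘Mosaic’ and ‘Uninjected’ were thus neighbours that did not separate beyond counting error for *foxa*. *mixl1* was counted 1 and 3 times in ‘Mosaic’, 21 and 8 times in ‘Ubiquitous’, and 2 and 18 times in ‘Uninjected’. Its shares were 0.46 (0.0117 to 2.56) and 1.25 (0.258 to 3.65), 6.08 (3.76 to 9.29) and 23.2 (10 to 45.6), and 3.43 (0.415 to 12.4) and 3.68 (2.18 to 5.81) per 100000. ‘Mosaic’ was again the lowest group for this endoderm factor, with intervals that reached those of both ‘Uninjected’ libraries. *drll.2* was counted 8 and 7 times in ‘Mosaic’, 42 and 14 times in ‘Ubiquitous’, and 5 and 28 times in ‘Uninjected’. Its shares were 3.68 (1.59 to 7.26) and 2.91 (1.17 to 6), 12.2 (8.76 to 16.4) and 40.5 (22.2 to 68), and 8.57 (2.78 to 20) and 5.72 (3.8 to 8.27) per 100000. Here too the ‘Mosaic’ intervals reached those of both ‘Uninjected’ libraries. For these 3 genes the shallow ‘Ubiquitous’ library was the highest of all, and for *mixl1* and *drll.2* its interval did not overlap that of the deep one. For all 3, the interval of the deep ‘Ubiquitous’ library overlapped that of the shallow ‘Uninjected’ library. For *mixl1* it overlapped that of the deep ‘Uninjected’ library too. The deep ‘Ubiquitous’ library alone thus did not separate from both ‘Uninjected’ libraries beyond counting error. The mean rlog value in ‘Mosaic’, ‘Ubiquitous’ and ‘Uninjected’ cells was 2.57 ± 0.03, 3.87 ± 0.46 and 2.82 ± 0.15 for *foxa* (SD, n = 2). It was 2.01 ± 0.14, 3.38 ± 0.60 and 2.58 ± 0.05 for *mixl1* (SD, n = 2), and 3.07 ± 0.09, 4.55 ± 0.71 and 3.55 ± 0.31 for *drll.2* (SD, n = 2).

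**Figure D1:**
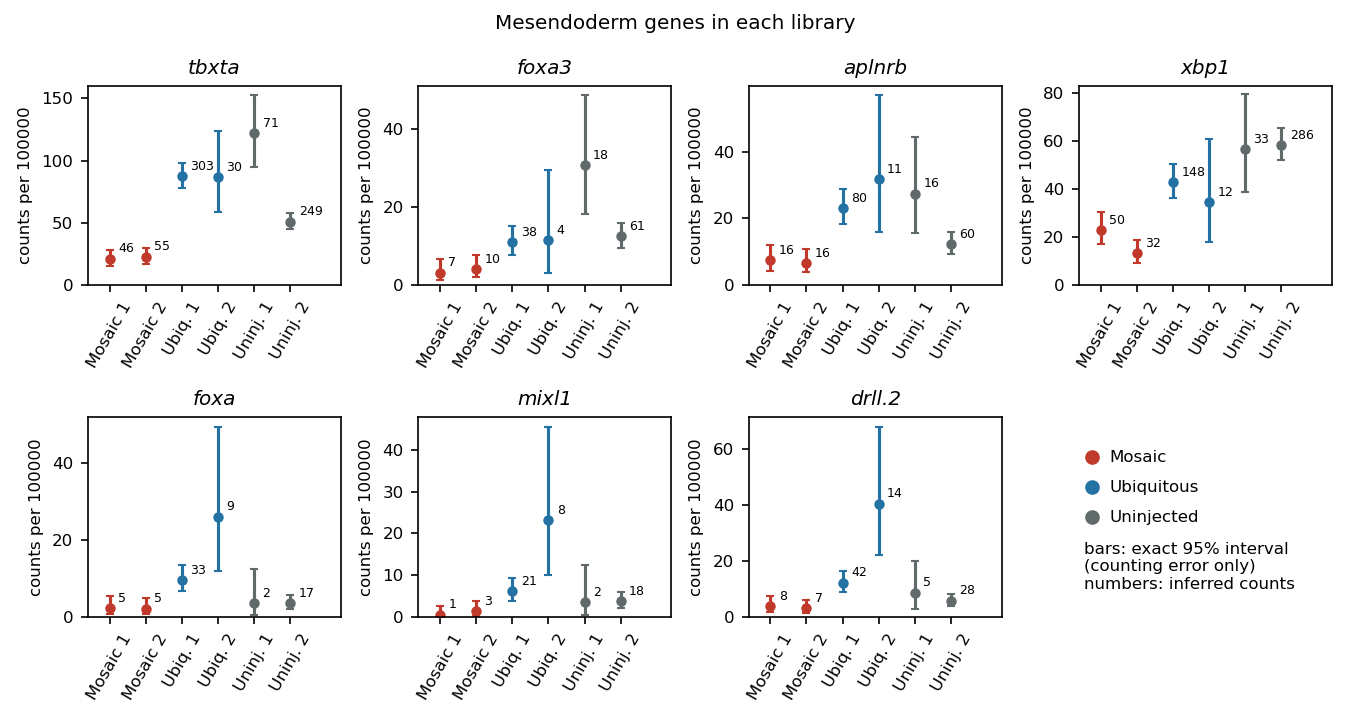
Share of each of the 7 genes in each library, in counts per 100000 (linear axes from 0), with the inferred count beside each point and exact 95% intervals for counting error as bars. Both ‘Mosaic’ points lie lowest in every panel, *tbxta* and *foxa3* differ between the 2 ‘Uninjected’ libraries, and *foxa*, *mixl1* and *drll.2* are highest in the second ‘Ubiquitous’ library.

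The draculin genes lie side by side on chromosome 5, in the order *drll.3*, *drll.2*, *drl* and *drll.1*, with no other protein-coding gene between them in the RefSeq annotation of GRCz12tu, where *drl* and *drll.1* overlap. Whether reads of these copies were shared was not tested, so the values of single members are uncertain. *drl* (ENSDARG00000078004) was counted 15 and 14 times in ‘Mosaic’, 46 and 10 times in ‘Ubiquitous’, and 7 and 39 times in ‘Uninjected’, and *drll.1* (ENSDARG00000035151) 29 and 30, 77 and 17, and 17 and 118 times. Neither passed between ‘Mosaic’ and ‘Ubiquitous’, with differences of -0.89 for *drl* (SE 0.25, limma adjusted p = 0.139) and -0.88 for *drll.1* (SE 0.26, limma adjusted p = 0.14). *drll.3* had a difference of -0.37 (SE 0.19, limma adjusted p = 0.418). All 3 had, as *drll.2*, their highest mean rlog value in ‘Ubiquitous’ cells, at 4.55 for *drl*, 5.50 for *drll.1* and 2.37 for *drll.3*.

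Between the groups, both ‘Mosaic’ libraries had lower rlog values than all 4 other libraries for 7 of the 7 genes, which held for 10.3% of the 3905 genes tested (mean rlog of 2 or more). All 7 reached this minimum. Compared with ‘Uninjected’ alone, the ‘Mosaic’ libraries were lower without overlap for 7 of 7 (19.9% of genes tested), and compared with ‘Ubiquitous’ for 7 of 7 (18.5%). The genes were named for this contrast, and nothing is read from these counts or from the ranks given next. Between ‘Ubiquitous’ and ‘Uninjected’, *foxa*, *mixl1* and *drll.2* were higher without overlap (13.7% of genes tested), *foxa3* and *xbp1* lower without overlap (19.6%), and *tbxta* and *aplnrb* overlapped. On the rlog scale, *tbxta* had the lowest difference between ‘Mosaic’ and ‘Ubiquitous’ of all genes tested, at -1.50. The next were *drll.2* at -1.48, *mixl1* at -1.36 and *foxa* at -1.30. The differences were -1.18 for *aplnrb*, -0.80 for *xbp1* and -0.79 for *foxa3*, below which lay 11, 47 and 50 genes, other members included. Between ‘Mosaic’ and ‘Uninjected’ the order was another one, with -1.38 for *tbxta*, -1.30 for *foxa3*, -1.23 for *xbp1*, -0.81 for *aplnrb*, -0.57 for *mixl1*, -0.48 for *drll.2* and -0.25 for *foxa*. The differences of ‘Ubiquitous’ from ‘Uninjected’ were 1.05 for *foxa*, 1 for *drll.2*, 0.80 for *mixl1*, 0.37 for *aplnrb*, 0.12 for *tbxta*, -0.43 for *xbp1* and -0.50 for *foxa3*. The 3 comparisons share libraries and are not independent of each other.

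The size of several differences depended on 1 library. When single libraries were left out, *tbxta* between ‘Mosaic’ and ‘Ubiquitous’ stayed between -1.54 and -1.45, *foxa3* between -0.87 and -0.72, and *aplnrb* between -1.28 and -1.07. For *xbp1* this difference was -1.06 without the first ‘Mosaic’ library and -0.54 without the second. For *foxa*, *mixl1* and *drll.2* it was -0.97, -0.94 and -0.98 without the second ‘Ubiquitous’ library, and -1.62, -1.79 and -1.98 without the first. Against ‘Uninjected’, the difference of ‘Mosaic’ was -0.81 for *tbxta*, -0.85 for *foxa3* and -0.38 for *aplnrb* without the first ‘Uninjected’ library, and -1.95, -1.74 and -1.23 without the second. Without the first it was also smaller for *drll.2*, at -0.26, and *foxa*, at -0.14. The difference between ‘Ubiquitous’ and ‘Uninjected’ went from 0.69 to -0.45 for *tbxta* and from 0.80 to -0.06 for *aplnrb* depending on which ‘Uninjected’ library was left out, so it had no stable direction. For *foxa3* it was -0.06 without the first ‘Uninjected’ library and -0.95 without the second, so its size rested on 1 library. For *foxa*, *mixl1* and *drll.2* it was 0.73, 0.37 and 0.50 without the second ‘Ubiquitous’ library and 1.38, 1.22 and 1.5 without the first. Where 2 groups do not overlap, leaving out 1 library cannot change the sign, so a kept sign is no measure of stability. The counts themselves, not drawn toward the mean, gave wider differences between ‘Mosaic’ and ‘Ubiquitous’, between -1.22 for *xbp1* and -2.97 for *mixl1* on the log2 scale (limma's voom).

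**Figure D2:**
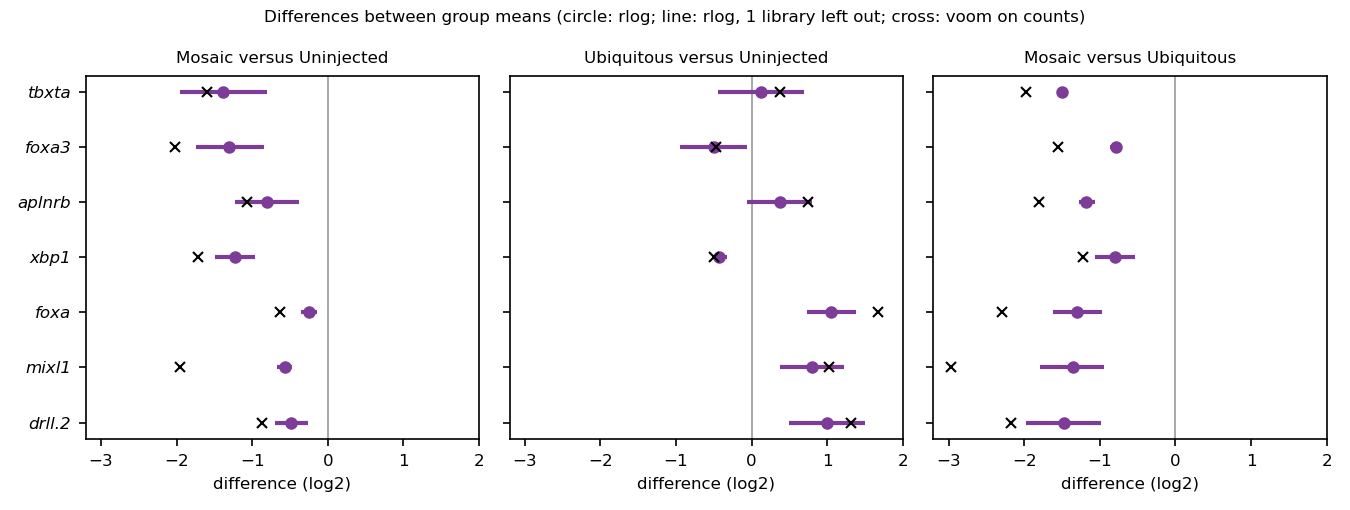
Differences between group means (log2) of the 7 genes in the 3 comparisons, with circles for the rlog values, lines for their range with 1 library of either group left out, and crosses for voom on the inferred counts. All lines lie below 0 for ‘Mosaic’ against both other groups, and those of *tbxta* and *aplnrb* cross 0 between ‘Ubiquitous’ and ‘Uninjected’. For all 7 genes ‘Mosaic’ did not overlap either other group, so leaving out 1 library could not bring those lines to 0.

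Among themselves, the 7 genes shared ‘Mosaic’ as the lowest group. They were chosen by their values in these libraries, so this and positive r among them follow in part from the choice. Over the 6 libraries, the rlog values of *foxa*, *mixl1* and *drll.2* had Pearson's r of 0.96 to 0.98 with each other. All were highest in the second ‘Ubiquitous’ library, where they had 9, 8 and 14 counts. *tbxta* had r = 0.966 with *aplnrb*, 0.913 with *foxa3*, 0.787 with *xbp1* and 0.714 with *mixl1*. *aplnrb* had r = 0.854 with *drll.2*, 0.827 with *mixl1*, 0.796 with *foxa3*, 0.792 with *foxa* and 0.678 with *xbp1*. The lowest r was 0.286, between *xbp1* and *foxa*. These values describe 6 libraries that share their group and depth, and r with the log2 depth ran from -0.122 for *xbp1* to -0.691 for *drll.2*. Of the other genes tested, those closest to *drll.2* over the 6 libraries were its neighbour *drl* (r = 0.992) and *eve1* (r = 0.978), a homeobox gene of the ventral margin. Closest to *aplnrb* were *cry3a* (r = 0.99), a cryptochrome gene, and *frzb* (r = 0.988), which encodes a secreted Wnt antagonist. Closest to *tbxta* were *med29* (r = 0.998) and *kdm2a* (r = 0.993), closest to *foxa3* were *rpf2* (r = 0.987) and *pttg1* (r = 0.972), and closest to *xbp1* were *btf3* (r = 0.991) and *fthl31* (r = 0.987). *med29* spanned only 5.28 to 5.53 on the rlog scale, against 5.40 to 7.40 for *tbxta*. Closest to *mixl1* were *slc22a31* (r = 0.979) and *cdc6* (r = 0.977), and closest to *foxa* were *sdcbp2* (r = 0.976) and ENSDARG00000102695 (r = 0.976). The last spanned only 2.57 to 2.78 on the rlog scale, against 2.55 to 4.19 for *foxa*. These genes were picked as the highest r among all genes tested over only 6 libraries, so nothing is read from their r.

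The other genes of these tissues and pathways were taken from lists of 103 symbols by textbook role, which gave 93 genes beside the 7, of which 48 were tested. The lists were written with earlier results of these data known. Between ‘Mosaic’ and ‘Ubiquitous’, 4 of the 48 were lower in ‘Mosaic’ by limma (adjusted p-value under 0.1) and 0 were higher, against 0.819% lower and 0.512% higher of all genes tested. The unadjusted limma p was under 0.05 for 15 of the 48, against 506 of all 3905 genes tested. The median difference of the 48 was -0.21, against 0.05 over all genes tested. The 4 genes were *tbx16*, a T-box gene of paraxial mesoderm, *osr1*, a zinc finger gene of the intermediate and lateral mesoderm, *twist2*, a bHLH gene expressed in the axial mesoderm, and *il17rd*, a feedback inhibitor of FGF signalling. *tbx16* (ENSDARG00000007329) was counted 136 and 141 times in ‘Mosaic’, 552 and 57 times in ‘Ubiquitous’, and 64 and 427 times in ‘Uninjected’, with a difference of -1.13 (SE 0.23, limma adjusted p = 0.034). *osr1* (ENSDARG00000014091) was counted 28 and 23, 117 and 16, and 19 and 117 times, with a difference of -1.21 (SE 0.24, limma adjusted p = 0.025). For *twist2* (ENSDARG00000078266), with 1 and 4, 24 and 4, and 6 and 20 counts, the rlog value changed by -1.02 (SE 0.24, limma adjusted p = 0.0494). For *il17rd* (ENSDARG00000098359), with 76 and 74, 224 and 36, and 18 and 226 counts, the change was -0.99 (SE 0.24, limma adjusted p = 0.0654). All 4 calls were lost with no filter on low values and without either ‘Mosaic’ library or the second ‘Ubiquitous’ one. That of *il17rd* was also lost in the 4 deepest libraries (-0.73), which hold 1 ‘Ubiquitous’ library. With no filter, limma adjusted p-values were 0.428 for *tbx16* and *osr1*, 0.471 for *twist2* and 0.503 for *il17rd*. The other alternatives that kept both libraries of ‘Mosaic’ and of ‘Ubiquitous’ gave limma adjusted p-values from 0.0123 to 0.056 for *tbx16*. They ran from 0.0129 to 0.056 for *osr1*, from 0.0159 to 0.0957 for *twist2* and from 0.0381 to 0.0976 for *il17rd*.

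By role, the list of paraxial and ventrolateral mesoderm had the lowest median between ‘Mosaic’ and ‘Ubiquitous’, at -0.55 over 17 genes. Of these, 16 had a negative difference (43.3% of all genes tested) and 2 passed, and both ‘Mosaic’ libraries lay below both ‘Ubiquitous’ libraries for 12 (18.5% of all genes tested). *msgn1* (ENSDARG00000070546), a bHLH gene of presomitic mesoderm, was counted 164 and 147 times in ‘Mosaic’, 400 and 41 times in ‘Ubiquitous’, and 71 and 307 times in ‘Uninjected’, and did not pass (difference -0.61, limma adjusted p = 0.358). Nor did the fibronectin genes listed as *FN1*, at -0.19 (ENSDARG00000019815, adjusted p = 0.798) and 0.44 (ENSDARG00000006526, adjusted p = 0.419), the latter the 1 gene of the 17 with a positive difference. Of 7 genes of axial mesoderm and the organizer, *twist2* passed and all had a negative difference, with a median of -0.22. *chrd* (ENSDARG00000006110), the BMP antagonist of the organizer, was at -0.17 (adjusted p = 0.811), and *frzb* (ENSDARG00000018383) at -0.35 (adjusted p = 0.526). Only 2 endoderm genes beside *mixl1* reached the minimum, and neither passed, with -0.42 for *sox32* (ENSDARG00000100591), the endoderm determinant (adjusted p = 0.336), and -0.54 for *cxcl12b* (ENSDARG00000055100), a chemokine gene (adjusted p = 0.351). *sox17* stayed just under the minimum, with 1 and 4, 12 and 1, and 5 and 9 counts. Of 7 genes of FGF signalling, 1 passed (*il17rd*). The FGF targets *dusp6*, *etv4* and *etv5b* were at -0.30, -0.14 and -0.11 and did not pass (limma adjusted p = 0.63, 0.843 and 0.876).

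Around *xbp1*, none of the 9 other genes of the unfolded protein response that reached the minimum passed in any comparison (limma), while 1 had an unadjusted p under 0.05 between ‘Ubiquitous’ and each other group and 0 between ‘Mosaic’ and ‘Uninjected’. Their median difference was 0.30 between ‘Mosaic’ and ‘Uninjected’, against -1.23 for *xbp1* itself. The chaperone genes *hspa5* (ENSDARG00000103846) and *hsp90b1* (ENSDARG00000003570) were counted 75 and 101 times and 95 and 122 times in ‘Mosaic’, and 25 and 259 times and 22 and 168 times in ‘Uninjected’. Their differences were -0.22 (adjusted p = 0.769) and 0.33 (adjusted p = 0.664), and that of the translocon gene *sec61b* (ENSDARG00000076568) was 0.23 (limma adjusted p = 0.793). The gene *ern1*, whose product activates *xbp1* RNA by splicing, was listed at 0 in all 6 libraries, as were 18134 of the 32266 genes. Gene counts do not tell spliced from unspliced *xbp1* RNA.

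**Figure D3:**
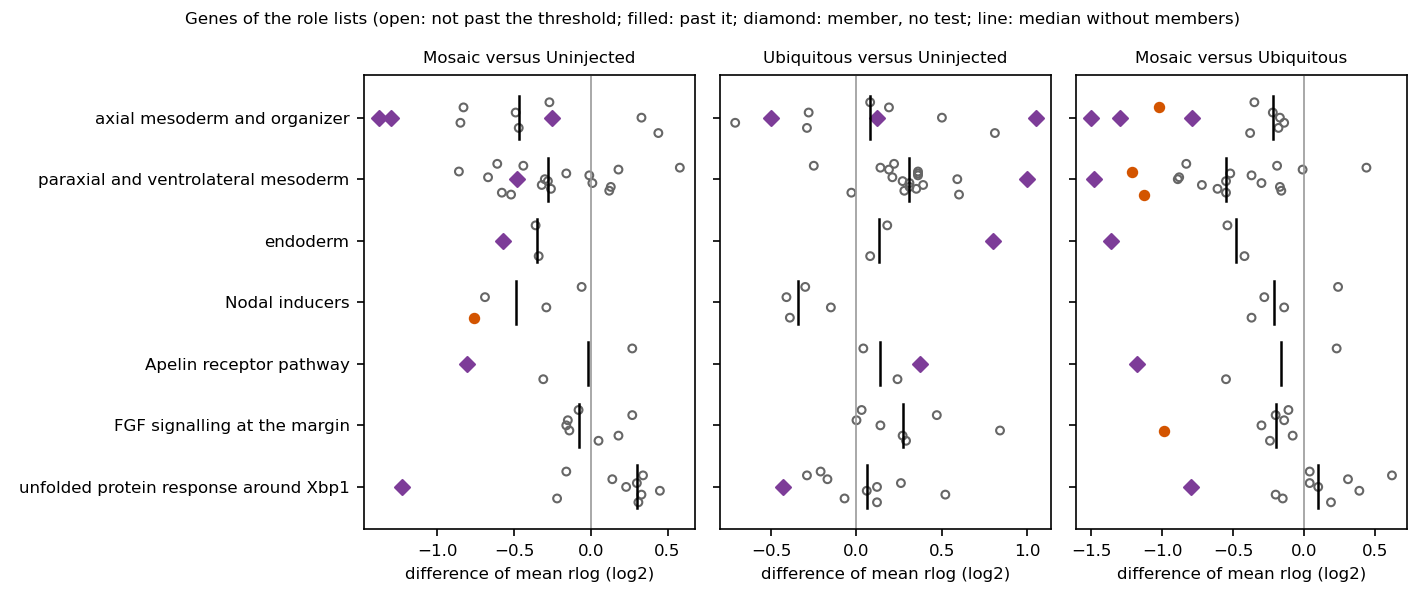
Differences of mean rlog values (log2) of the genes of 7 role lists in the 3 comparisons, with open circles for genes that did not pass the threshold, filled circles for those that did, diamonds for the 7 genes described here (no test) and black lines for list medians without them. Filled circles are 1 Nodal list gene (*gdf3*) between ‘Mosaic’ and ‘Uninjected’ and 4 genes between ‘Mosaic’ and ‘Ubiquitous’, and *xbp1* lies below the other genes of its list in both ‘Mosaic’ comparisons.

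Between ‘Mosaic’ and ‘Uninjected’, 1 of the 48 genes passed lower and 0 higher, against 0.845% lower and 0.538% higher of all genes tested. The unadjusted limma p was under 0.05 for 11 of the 48, against 440 of all 3905 genes tested. The median was -0.16 against 0.02. The gene that passed was *gdf3* (ENSDARG00000037995), a partner of Nodal ligands, at -0.76, for which ‘Mosaic’ held 3 and 2 counts and ‘Uninjected’ 4 and 30 (SE 0.18, limma adjusted p = 0.0586). Its call was lost in 8 of 16 alternatives, namely without any 1 of the ‘Mosaic’ or ‘Uninjected’ libraries, with no filter on low values, without a variance trend, with voom and in the 4 deepest libraries. The adjusted p-value ran from 0.0469 to 0.464 over 15 of them, and was 0.019 with crossed lot numbers, an alternative chosen after the data were seen. The other Nodal pathway genes did not pass, with -0.69 for the Nodal antagonist *lft2* (adjusted p = 0.218), -0.29 for the co-receptor *tdgf1* (adjusted p = 0.724) and -0.06 for the transcription factor *foxh1* (limma adjusted p = 0.944). *ndr1* had 3 counts in all, and *ndr2*, *lft1* and both rows of *wnt8a* were at 0. For rows at 0, absence of the RNA was not told apart from reads that could not be counted. Between ‘Ubiquitous’ and ‘Uninjected’, 0 of the 48 genes passed in limma, against 0.333% lower and 0.154% higher of all genes tested. The unadjusted limma p was under 0.05 for 6 of the 48, against 264 of all 3905 genes tested. With voom on the inferred counts 0 passed as well, and the unadjusted p was under 0.05 for 10, against 286 of all genes tested. The median was 0.19, against -0.03 over all genes tested, and it was 0.31 for the 17 genes of paraxial and ventrolateral mesoderm, of which 9 were higher without overlap (13.7% of all genes tested). Both ‘Mosaic’ libraries lay below all 4 others for 13 of the 48 genes (10.3% of all genes tested), 7 of them among these 17. These 17 include *drl*, *drll.1* and *drll.3*, whose reads may be shared with *drll.2*.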

How the data were processed

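RNA-Seq values of 6 libraries, 2 for each of 3 groups, were used. The authors made CEL-Seq2 libraries, aligned reads to GRCz10 with Bowtie2 (2.3.1), counted them per gene with HTSeq (0.6.1), discarding duplicates in molecular identifiers, and deposited regularized logarithms on the log2 scale. These draw low counts toward the gene's mean, so differences are understated. Counts were inferred in Python (3.11.15) by inverting the transformation, from 34540 to 489311 per library. Group means were compared with limma (3.58.1 in R 4.3.3), with a variance trend, over 6 libraries and 3905 genes (mean rlog 2 or more). The threshold was a Benjamini-Hochberg adjusted p under 0.1, two-sided. P-values measure the spread between libraries of a group, which may be technical.

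The members and lists were chosen with earlier results of these data known. A table of gene names gave symbols for 26433 of 32266 identifiers, and 8 listed symbols were matched without their paralog letter, a step chosen after the data were seen. Genes are named if they are members, passed within the role lists, are near paralogs of a member, are among the 3 genes of a list with the highest mean rlog after members and genes that passed, or are among the 2 closest to a member by Pearson's r. Of other genes, the second *FN1* row, *ctslb*, *otx1*, *klf17*, *he1.1*, *ctnnb1*, *ndr1*, *ndr2*, *lft1*, *wnt8a* and *ern1* were named after their values were seen. Alternatives were other filters, normalizations, variance priors and thresholds, the 4 libraries compared or the 4 deepest, the lot number as a block, voom, and each library left out. The fits and the inversion were tested on simulated data. No sequences are given.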

Additional observations from a re-analysis of the deposited data

How the results depend on the processing

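With each library left out, 0 to 3 of the 48 listed genes passed between ‘Mosaic’ and ‘Uninjected’, 0 to 1 between ‘Ubiquitous’ and ‘Uninjected’ and 0 to 6 between ‘Mosaic’ and ‘Ubiquitous’ (1, 0 and 4 with all 6), and 25 to 64, 14 to 25 and 2 to 67 of all genes (54, 19 and 52). The lone library of a group is assumed to vary like the others. Without either ‘Mosaic’ library 2 genes passed against ‘Ubiquitous’, and without the second ‘Ubiquitous’ library 10. With no filter, 0 and 0 listed genes passed in ‘Mosaic’ with ‘Uninjected’ and with ‘Ubiquitous’, and 6, 7 and 0 of all genes in the 3 comparisons (795, 468 and 950 with an unadjusted p under 0.05 in limma). With a mean rlog of at least 4, 0 listed genes passed between ‘Mosaic’ and ‘Uninjected’, and 18, 5 and 24 of all genes, with fewer genes tested. For the listed genes between ‘Mosaic’ and ‘Uninjected’, the count was 2 with quantile normalization or a robust prior, 3 with median centring or only the 4 libraries compared, and 0 without a variance trend or at an adjusted p-value under 0.05, where 33 of all genes passed between ‘Mosaic’ and ‘Ubiquitous’. In the 4 deepest libraries, 1 listed gene passed between ‘Ubiquitous’ and ‘Uninjected’, and 142, 54 and 159 of all genes. The 4 deepest hold both ‘Mosaic’ libraries and 1 of each other group, so the spread came from the ‘Mosaic’ pair alone. Calls between ‘Ubiquitous’ and ‘Uninjected’ there rest on no replicate of either group. The cause of the higher counts was not tested. With the lot number as a replicate block, 1, 0 and 4 listed genes and 57, 23 and 50 of all genes passed, and it changed no count by over 1.5 times. Same-numbered libraries did not deviate together (r of deviations -0.059, -0.12 and -0.039 over 3905 genes). Crossed lot numbers, chosen after seeing the data, gave 6 listed and 177 of all genes between ‘Mosaic’ and ‘Uninjected’. For the 7 members, 216 of 231 values under alternatives moved by less than the spread between replicates and 15 by more. With 2 libraries per group, leaving a library out or adding the replicate block cannot move a difference by more than this spread. The 216 are thus no measure of stability. Of them, 2 changed sign (*tbxta* to -0.45 and *aplnrb* to -0.06 between ‘Ubiquitous’ and ‘Uninjected’).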
